A study of Mus musculus with 24 samples.

Results

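In myofibers of vehicle-treated male mice, 41335 H3K27ac peaks stood at least 4 times over input and had no counterpart in any list of males given weekly prednisone. They were taken from the 87199 autosomal peaks of the male vehicle list (87600 peaks on all chromosomes and contigs). A peak was taken when it shared not a single base with a peak of the male day 4, day 6 or day 8 list, and when its H3K27ac tags (sequenced fragments, scaled to the input depth in the deposited list) were at least 4 times its input tags. Such peaks are called unmatched peaks here. The other 12023 peaks that stood at least 4 times over input overlapped a peak of a treated male list and are called matched peaks. A further 28822 peaks under 4 times input also lacked a counterpart and are called weak unmatched peaks, and 5019 peaks under 4 times input overlapped a treated male peak. The unmatched peaks were thus chosen by the presence of peaks in the male lists and by the ratio of tags to input in male vehicle, so their absence from the treated male lists is the rule and not a result.

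H3K27ac is the acetylation of a lysine in the tail of histone H3. It is written by the acetyltransferases CBP and p300 and is found at the promoters of active genes and at active enhancers, which can lie far from the gene they act on and differ between cell types. In muscle, enhancers are known to be bound by MyoD family factors at E-boxes and by MEF2 factors. Prednisone is a synthetic glucocorticoid that acts through the glucocorticoid receptor (GR), a nuclear receptor that binds DNA and recruits such acetyltransferases.

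The mice were C57BL/6J males and females (C57BL/6 in the labels), 10 weeks old when treatment began. Weekly prednisone was 5 weekly injections of 1 mg/kg over 4 weeks with DMSO vehicle on the days between, and vehicle mice received DMSO alone. Myofibers were isolated from the left quadriceps of vehicle mice and of prednisone mice 4, 6 or 8 days after the last injection, which with both sexes made 8 groups. Each group had 2 H3K27ac libraries, described as biological replicates, and 1 input library, and 1 peak list per group was deposited. No source used here states the step that joined a group's libraries into its list, so presence in both libraries cannot be given. No comparison between lists therefore has a replicate error or a test, and the 95% Wilson intervals given with percentages cover counting error only.

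The sequences below, in 3 sets, show what these peaks were at the level of DNA, each as 300 bases of the plus strand of mm10 around the center of the peak. Capitals mark matches outside repeats to MEF2, to GR (ACANNNTGT), to the E-box (CAGCTG), to M-CAT (CATTCC), to AP-1 (TGANTCA), to SP/KLF (GGGCGG) and to ETS (ACTTCCGG), on either strand, and, for Mt2 alone, to the metal response element MRE (TGCNCNC). The sequence was read from the RefSeq copy of GRCm38.p6, and none of the windows overlaps an exon. The first set holds distal peaks with among the highest tag counts of all unmatched peaks. They are the peak upstream of Mef2a (chr7:67443337-67443636), the peak in an intron of Cd81 (chr7:143058448-143058747) and the peak in an intron of Abcg1 (chr17:31071785-31072084).
Mef2a upstream: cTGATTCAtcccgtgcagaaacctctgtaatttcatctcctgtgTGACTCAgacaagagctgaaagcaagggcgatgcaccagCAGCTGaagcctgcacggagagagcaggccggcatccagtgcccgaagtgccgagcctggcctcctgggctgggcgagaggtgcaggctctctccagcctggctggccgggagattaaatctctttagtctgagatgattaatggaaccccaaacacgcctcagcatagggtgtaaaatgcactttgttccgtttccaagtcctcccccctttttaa
Cd81 intron: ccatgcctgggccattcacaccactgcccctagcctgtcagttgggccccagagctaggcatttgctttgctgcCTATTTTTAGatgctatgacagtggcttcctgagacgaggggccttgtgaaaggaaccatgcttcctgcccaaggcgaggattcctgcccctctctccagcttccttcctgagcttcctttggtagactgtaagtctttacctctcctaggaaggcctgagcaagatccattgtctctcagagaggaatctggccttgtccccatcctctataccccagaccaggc
Abcg1 intron: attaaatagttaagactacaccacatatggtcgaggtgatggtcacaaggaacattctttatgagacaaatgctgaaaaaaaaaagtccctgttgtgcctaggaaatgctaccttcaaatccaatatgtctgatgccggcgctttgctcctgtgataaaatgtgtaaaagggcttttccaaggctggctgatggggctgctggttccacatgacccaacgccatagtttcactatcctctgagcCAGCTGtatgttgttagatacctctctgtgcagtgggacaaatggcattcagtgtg

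The second set is the promoter of Mt2 (chr8:94172228-94172527), which encodes a metallothionein induced by metals and glucocorticoids. It is shown because it was the unmatched promoter peak with the most tags among the pathway genes examined. This window held 4 matches to the loose MRE pattern and 1 SP/KLF match. It had 23 CpG sites, and the windows of the other peaks shown held 1 to 10.
Mt2 promoter: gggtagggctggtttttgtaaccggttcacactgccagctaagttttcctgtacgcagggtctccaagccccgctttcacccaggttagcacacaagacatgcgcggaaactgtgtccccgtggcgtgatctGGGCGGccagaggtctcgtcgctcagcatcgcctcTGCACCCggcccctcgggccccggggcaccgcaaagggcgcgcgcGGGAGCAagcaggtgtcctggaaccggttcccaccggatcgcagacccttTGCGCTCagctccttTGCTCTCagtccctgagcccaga

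The third set holds the peaks with the highest tags over input, which lay in intergenic sequence nearest to Cds1 (chr5:101748809-101749108) and Kctd15 (chr7:34560778-34561077). Neither window held a match outside repeats to the motifs marked in the first set.
Cds1 intergenic: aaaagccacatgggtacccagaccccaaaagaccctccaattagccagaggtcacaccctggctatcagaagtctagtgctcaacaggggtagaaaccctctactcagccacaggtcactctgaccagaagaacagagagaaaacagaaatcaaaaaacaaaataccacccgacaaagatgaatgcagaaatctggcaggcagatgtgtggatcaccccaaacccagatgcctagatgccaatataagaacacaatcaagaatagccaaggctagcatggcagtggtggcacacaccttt
Kctd15 intergenic: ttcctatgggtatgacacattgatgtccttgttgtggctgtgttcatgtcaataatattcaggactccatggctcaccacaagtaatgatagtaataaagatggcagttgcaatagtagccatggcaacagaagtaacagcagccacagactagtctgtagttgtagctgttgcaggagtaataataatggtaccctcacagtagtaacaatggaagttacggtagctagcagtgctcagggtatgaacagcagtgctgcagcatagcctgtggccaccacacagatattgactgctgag

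Although chosen for a high ratio to input, the unmatched peaks were not rich in tags. Their median was 13.9 normalized tags (the H3K27ac tags scaled to 10 M, where M stands for 10 to the power of 6), with 5% at or under 8.86, 95% at or under 26.9 and a highest value of 98.4. The matched peaks had a median of 33.5 normalized tags, and all autosomal vehicle peaks had a median of 13.9. At the depth of the list the median unmatched peak rested on 44.0 tags, against 105.9 for the median matched peak. The ratio to input was similar in both, with a median of 5.67 for unmatched and 5.79 for matched peaks. The unmatched peaks were also short, since 73.6% had the smallest width of 500 bp in the list, against 19.6% of matched peaks, whose median width was 1101 bp. Over all autosomal vehicle peaks 61.4% had the smallest width. The findPeaks score is a tag number that the caller gives to each peak. It was at the lowest value of the list, 9, in 41.2% of unmatched and 17.0% of matched peaks, beside 38.5% of all.

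The share of vehicle peaks at least 4 times over input that had no treated male counterpart was 77.5%, beside 80.5% of all autosomal vehicle peaks. It was 50.7% (49.8 to 51.6) when every male list was reduced to its 17482 peaks of highest score, and 39.4% (38.6 to 40.2) over peaks with at least 20 normalized tags. The share was lower at higher tag counts. It was 92.5% (91.7 to 93.2) at 10 normalized tags or less, 92.8% from 10 to 15 and 88.2% from 15 to 20. It was 67.7% (66.5 to 68.8) from 20 to 30, 28.4% from 30 to 50 and 3.56% (3.02 to 4.20) above 50, where 135 of 3789 peaks were unmatched. The tag count is the numerator of the ratio that the rule used, so these shares are a description only. Across the autosomes the share ranged from 74.1% on chromosome 11 to 80.3% on chromosome 12.

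**Figure D1:**
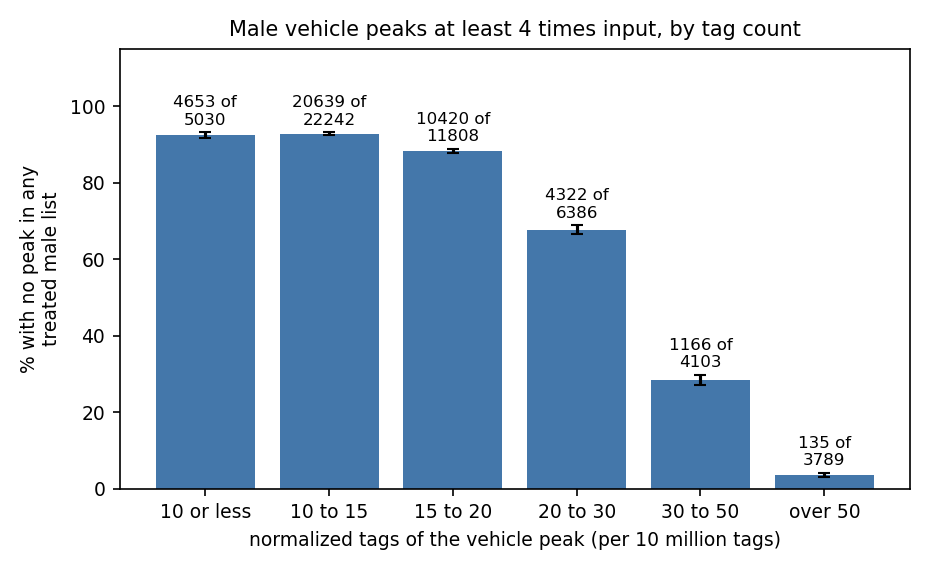
Percentage of autosomal male vehicle peaks at least 4 times over input that overlapped no peak of a treated male list, by the normalized tags of the vehicle peak (per 10 M tags), with 95% Wilson intervals as bars and the counts above them. The share is 92.5% in the lowest bin and 3.56% above 50 tags.

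The male lists differed in depth, length, lowest score and the share of tags in peaks. Peaks held 18.5% of the H3K27ac tags for vehicle and 10.3%, 5.39% and 6.04% for days 4, 6 and 8. Vehicle rested on 31.6 M H3K27ac tags, day 4 on 7.52 M, day 6 on 50.6 M and day 8 on 32.1 M. Of the autosomes, the vehicle list covered 2.68% and the treated lists 0.510%, 1.08% and 0.685% in order of day, with 17482 peaks in the shortest. Their lowest scores were 9, 7, 25 and 15 in the same order, and the vehicle list held a median of 4.31 tags per unit of score against 1.57, 1.07 and 1.501.

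Scaled to the depth of each treated list, the median score of the unmatched peaks came to 2.38 at day 4, 15.99 at day 6 and 10.1 at day 8. These values lie under the lowest scores that those lists contain. Only 1 of 41335 unmatched peaks would have reached the lowest score of the day 4 list, 659 (1.59%) that of day 6 and 1156 (2.80%) that of day 8. Of the matched peaks, whose scores were scaled likewise, 2.16% would have reached the limit of day 4, 25.8% that of day 6 and 31.2% that of day 8, whereas 54.0%, 74.1% and 65.3% of them were in those lists. Most matched peaks thus also lay under these limits. By normalized tags the reading was different. Of the 30434 unmatched peaks of 500 bp, 26.7% had at least the median tags of the 500-bp peaks of the day 4 list (14.6), 99.9% at least that of day 6 (5.34) and 99.1% at least that of day 8 (6.86). Where vehicle peaks were matched, the tags per kb of the treated peak over those of the vehicle peak had a median of 0.998 for the day 4 list, 0.528 for day 6 and 0.564 for day 8. The lowest score of the 4 male lists rose in the order of their depth, and the tag density ratio of the 3 treated lists fell in that order. The part of depth, score limit, tag density and share of tags in peaks in the absence of a counterpart was not tested. The levels of H3K27ac at the unmatched peaks in treated males cannot be given from these lists, which hold values at called peaks only. Raw reads, which the paper states are available, were not counted here.

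The distance from an unmatched peak to the nearest treated male peak is bounded by the rule and is given as a description. The median distance to the nearest was 11.6 kb, and a treated male peak was within 500 bp for 4.62%, within 1 kb for 8.45% and within 10 kb for 46.2%. The weak unmatched peaks had similar values, with 4.54%, 8.61% and 48.6%. The unmatched peaks were spread out among themselves too, with 28.3% within 5 kb of another.

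Unmatched peaks lay mostly in introns and between genes, as did the autosomal vehicle peaks as a whole. By the position of the center, 51.0% (50.5 to 51.5) were in introns, 39.2% (38.7 to 39.6) were intergenic, 5.52% in exons, 1.88% at transcription termination sites (TTS) and 2.41% (2.27 to 2.57) at promoters, whose window reached 1 kb upstream and 100 bp downstream of a start. Promoters took 27.2% (26.4 to 28.0) of matched peaks and 6.80% of all autosomal vehicle peaks, and 1804 of the 12023 matched peaks were intergenic. Of all autosomal vehicle peaks, 50.5% were in introns and 33.1% were intergenic. A transcription start lay inside 2.12% of unmatched and 43.2% of matched peaks. The median distance to the nearest start of a protein-coding gene was 29.6 kb for unmatched, 23.5 kb for weak unmatched and 1.505 kb for matched peaks. The weak unmatched peaks, with 2.95% at promoters and 34.5% intergenic, had shares closer to those of the unmatched peaks than to those of the matched ones. Promoters took 2.56%, 2.04% and 1.92% of unmatched peaks in the bins up to 10, 15 and 20 tags, and 3.61%, 7.20% and 13.3% (18 of 135) from 20 to 30, from 30 to 50 and above 50. In the same bins they took 16.2%, 12.2%, 16.4%, 24.3%, 32.9% and 36.0% of matched peaks.

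**Figure D2:**
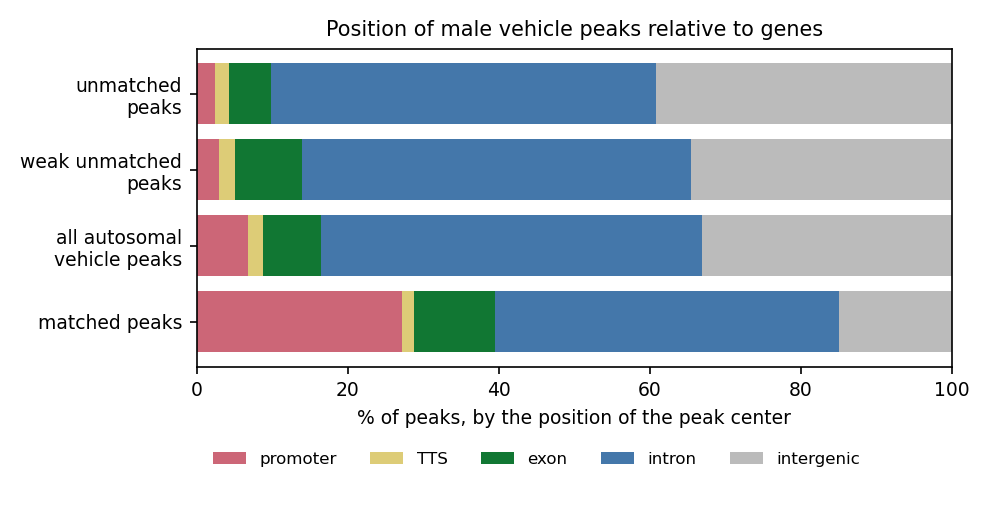
Percentage of peaks of the male vehicle list by the position of the peak center relative to genes, for unmatched peaks, weak unmatched peaks, all autosomal peaks and matched peaks. Promoters take 2.41% of unmatched and 27.2% of matched peaks.

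At the level of genes, an unmatched peak lay over the promoter window of 1404 of 20021 autosomal protein-coding genes (7.01%). For 1271 of these no vehicle peak with a treated male counterpart lay over the same window. Any vehicle peak was present at 50.3% of promoters and a matched peak at 31.0%. Elsewhere in the window, the male day 4 list had a peak at 8.40% of the 1404 promoters, the day 6 list at 9.33% and the day 8 list at 9.97%. In females the vehicle list had a peak at 15.03% (13.3 to 17.0) of these promoters, the day 4 list at 57.9% (55.3 to 60.5), the day 6 list at 82.8% (80.7 to 84.6) and the day 8 list at 73.6% (71.3 to 75.9). Over all 20021 promoters the male lists had a peak at 28.0%, 28.9% and 32.9% in order of day, and the female lists at 25.03% for vehicle and 52.0%, 67.9% and 60.8%. The male values follow from the rule and are a description. All promoters include those with no male vehicle peak, so the promoters with a matched peak are the nearer comparison, and the female lists had a peak at 61.4% of those for vehicle and at 98.3%, 99.6% and 99.7% in order of day. The promoters with an unmatched peak were below these in every female list. At least 1 unmatched peak was nearest to 12379 genes (61.8% of genes).

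Few promoters of the pathway genes examined carried an unmatched peak, at a share whose interval includes that of all genes. Of 285 autosomal genes in 15 pathway lists, 14 (4.91%, 2.95 to 8.08) had an unmatched peak over the promoter, beside 7.01% of all genes, and 196 had a matched one. No gene had one in 7 lists. These were the sarcomere list (0 of 28 genes, with matched peaks at 16), calcium handling (0 of 18, matched at 11), glycolysis and glycogen (0 of 15, matched at 12), the circadian clock (0 of 15, matched at 12), ribosomal proteins (0 of 24, matched at 17), oxidative phosphorylation (0 of 22, matched at 21) and the proteasome (0 of 17, matched at 12). The lists are short, so single genes set their shares.

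In the glucocorticoid response list 2 of 20 genes had an unmatched promoter peak, and 15 had a matched one. The Mt2 peak (chr8:94171457-94173300) held 72.7 normalized tags in male vehicle over 1843 bp, or 39.4 tags per kb. Its female counterparts held 13.2 tags per kb at day 4, 51.4 at day 6 and 31.5 at day 8, and female vehicle had none. Sgk1, a kinase gene induced by glucocorticoids, had a small peak of 11.4 normalized tags with no female counterpart.

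Other pathway lists held 1 or 2 such genes each. In the IGF1 and PI3K list (2 of 20) they were Pik3cb, a catalytic subunit of PI3K, with 11.7 normalized tags, and Itga3, an integrin subunit, with 9.49. Both had counterparts at all 3 treated female days. In lipid metabolism (1 of 25) it was Plin5, a lipid droplet protein, with 21.8 normalized tags or 26.4 per kb in male vehicle, and 15.8, 40.1 and 19.98 per kb in females at days 4, 6 and 8. In the myogenic list (1 of 15) it was Nfix, a transcription factor of fetal and adult muscle, which had a peak in all 4 female lists, with 25.9 tags per kb in male vehicle, 19.6 in female vehicle and 16.1, 43.7 and 35.6 at the female days. The Nfix peak ended 0.09 kb from a treated male peak. The neuromuscular junction list (2 of 12) had the acetylcholine receptor subunit gene Chrna1 (21.5 normalized tags) and Ache, the gene of acetylcholinesterase (14.9). The dystrophin complex and membrane repair list (2 of 16) had the syntrophin gene Sntb1 (34.8) and the dystrobrevin gene Dtna, of which Sntb1 had a counterpart in females at days 6 and 8 and Dtna in no female list. Of transcription and chromatin genes (2 of 21) there were Crebbp, which encodes CBP, with 20.9 normalized tags, and the coactivator gene Ncoa2 with 16.4. Both were found at all 3 treated female days. In the NF-kB and inflammation list (2 of 18) Il6 and Tnf, both cytokine genes, had peaks of 14.5 normalized tags each, and each had a counterpart in females at day 6 alone.

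For some of the pathway lists with no unmatched promoter peak, unmatched peaks near the start of a list gene are described instead. Near the start of Atp2a2, which encodes a calcium pump of the sarcoplasmic reticulum, an unmatched peak of 5.38 normalized tags lay 0.39 kb downstream in an exon. A treated male peak was 0.38 kb away. On the scale of the input the unmatched peak had 14.1 tags over 0.5 input tags, the lowest input value of the list. This peak had counterparts at all 3 treated female days, and the peak near Cacna1h of the same list was in no female list. Near Per1, a clock gene induced by glucocorticoids, an unmatched peak of 8.54 tags lay 2.01 kb downstream and 0.23 kb from a treated male peak. It overlapped a female peak of 24927 bp at day 6 and of 19496 bp at day 8. Near the troponin genes Tnnc1 (9.80 tags) and Tnni1 (10.8 tags) the nearest unmatched peaks were in no female list. Near Sdhc, a subunit of respiratory complex II, a peak of 38.9 normalized tags with only 3 input tags was in no female list either, and a treated male peak lay 0.65 kb from it. The peak near Ndufb8 of the same list (13.3 normalized tags) was in the female lists of days 4 and 8.

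The male vehicle list was checked against cell type markers, since isolated myofibers can carry other cells. Over all 9 marker lists 6 of 79 genes (7.59%, 3.53 to 15.6) had an unmatched promoter peak, near the 7.01% of all genes. A vehicle peak lay over the promoter of 13 of 15 myofiber markers, of which 12 had a matched peak and 0 an unmatched one. All 10 endothelial markers had a vehicle peak, 7 of them matched and 0 unmatched. Of 12 macrophage and other leukocyte markers 3 had a vehicle peak, and all 3 of these, Cd68, Laptm5 and Cd3e, had an unmatched and none a matched one, with 13.0, 10.1 and 14.5 normalized tags. The defining leukocyte genes Ptprc, Spi1, Itgam and Csf1r had no vehicle peak at the promoter. Of 8 smooth muscle and pericyte markers 2 had an unmatched peak, Tagln (39.2 tags) and Myh11 (34.2 tags). A matched peak was at 1 of the 8, and Acta2, Rgs5, Notch3 and Kcnj8 had no vehicle peak. Of 8 satellite cell markers 1 had an unmatched peak, Chrdl2 (13.6 tags), while Pax7 and Myf5 had no vehicle peak. Fibroblast markers (0 of 10), adipocyte markers (0 of 7), Schwann cell markers (0 of 5) and erythroid markers (0 of 4) had no unmatched promoter peak, and those of adipocytes and erythroid cells had no vehicle peak at all. The part of other cells in the unmatched peaks was not tested, and fewer cells of a type cannot be told apart from less acetylation per cell.

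The female lists, which the rule did not use, held few of the unmatched peaks for vehicle and more after prednisone. The same order held over all autosomal male vehicle peaks. A female vehicle peak overlapped 1294 unmatched peaks, or 3.13% (2.97 to 3.30), beside 12.1% of all autosomal male vehicle peaks. This share depended on the settings, from 1.48% when 50% of the unmatched peak had to be covered to 7.13% with male lists of equal length and 8.50% for peaks with at least 20 tags. It was 5.81% when a treated male list had to cover 50% of the vehicle peak to count, and 5.02% with the male day 6 list left out. The day 4 list held a peak at 14.6% (14.3 to 14.9) beside 29.2% of all, the day 6 list at 35.4% (34.9 to 35.8) beside 51.5% and the day 8 list at 24.4% (24.0 to 24.8) beside 40.2%. At least 1 treated female list held a peak at 17188 unmatched peaks, or 41.6% (41.1 to 42.1), beside 56.7% of all. All 3 treated female lists did so at 4255 (10.3%), beside 25.5% of all. At 3574 of these, or 8.65% of unmatched peaks, female vehicle had none, beside 14.8% of all. No female list held a peak at 23917 (57.9%), beside 42.9% of all.

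Matched peaks were found in females far more often, at 56.1% (55.2 to 56.98) in the vehicle list and 88.5%, 94.4% and 94.3% in the lists of days 4, 6 and 8. The weak unmatched peaks, set apart from the unmatched peaks by their ratio to input, were found at 2.85% in the vehicle list and 16.7%, 49.5% and 31.5% in those of days 4, 6 and 8. On all 3 treated days their shares were thus above those of the unmatched peaks, and for female vehicle the intervals overlapped. The female vehicle list covered 1.06% of the autosomes and the treated lists 2.84%, 6.39% and 4.40% in order of day, and the shares of unmatched peaks followed the same order. Peaks held 7.87% of the H3K27ac tags for female vehicle and 11.9%, 47.3% and 25.9% for days 4, 6 and 8, again in that order. The part of list length and of the share of tags in peaks was not tested.

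**Figure D3:**
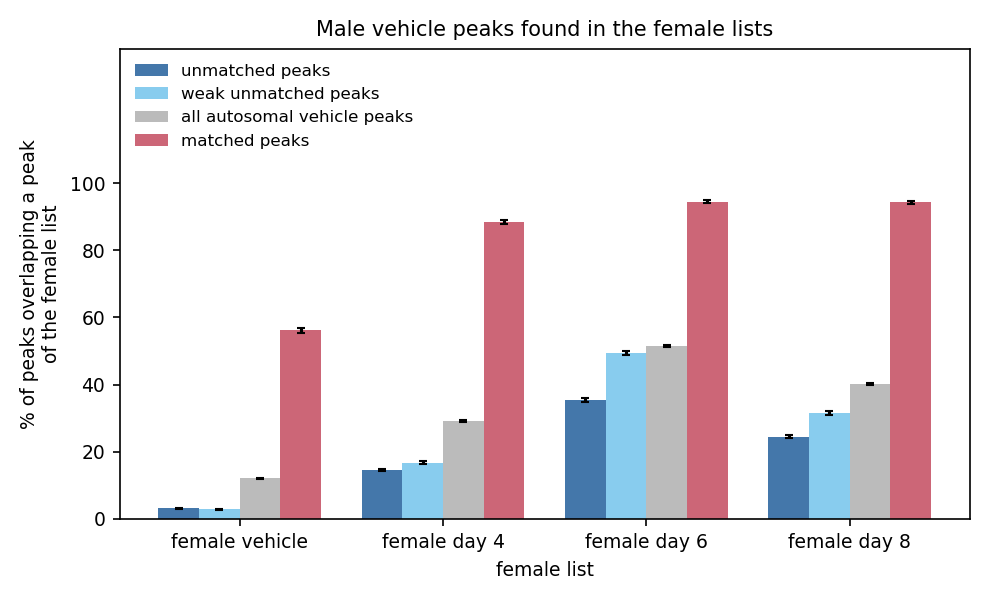
Percentage of male vehicle peaks that overlapped a peak of each female list by 1 bp or more, for unmatched peaks, weak unmatched peaks, all autosomal peaks and matched peaks, with 95% Wilson intervals. Unmatched peaks range from 3.13% for female vehicle to 35.4% at day 6 and are below matched peaks in every female list.

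The gap between unmatched and matched peaks was also present within bins of tag count. At the treated days it was narrowest above 50 tags, a bin with no upper bound in which matched peaks reached far higher counts than the 98.4 of the highest unmatched peak. At 10 to 15 normalized tags, 18.4% (17.9 to 18.9) of unmatched and 79.2% (77.2 to 81.1) of matched peaks were found in females at day 8. From 20 to 30 tags it was 42.8% (41.4 to 44.3) and 95.7% (94.7 to 96.5), and above 50 tags 94.8% (89.7 to 97.5) and 100% (99.9 to 100). For female vehicle the gap widened with tags, from 1.70% of unmatched and 22.3% of matched peaks at 10 tags or less to 25.9% (19.3 to 33.9) of unmatched and 85.5% (84.3 to 86.6) above 50 tags. The unmatched peaks in introns were found more often than those between genes, at 29.4% against 14.2% in females at day 8, and those at promoters most often, at 57.2% (54.1 to 60.3). The order was the same over all autosomal vehicle peaks, with 43.3% in introns, 22.7% between genes and 86.2% at promoters. Promoter peaks that were matched were found at female day 8 in 99.5% of cases.

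**Figure D4:**
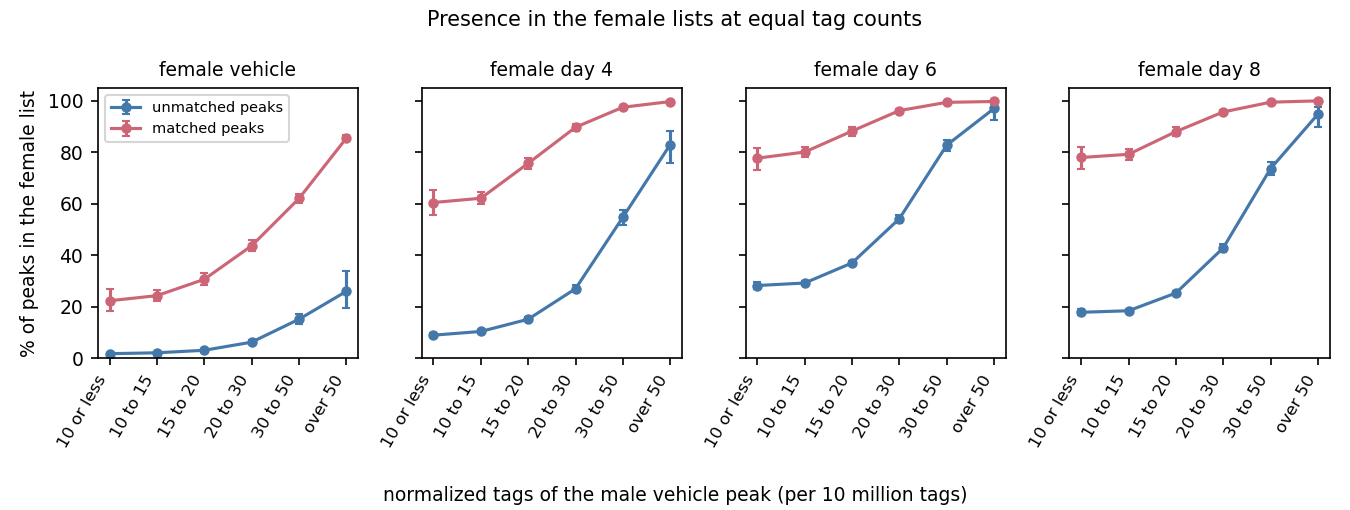
Percentage of unmatched peaks and matched peaks found in each female list, by the normalized tags of the male vehicle peak (per 10 M tags), with 95% Wilson intervals. At female day 8 the unmatched peaks go from 17.8% in the lowest bin to 94.8% above 50 tags, and the matched peaks from 78.0% to 100%.

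Where an unmatched peak had a female counterpart, its tag density is given beside that of the male vehicle peak. The female vehicle counterparts had a median width of 500 bp and those of days 4, 6 and 8 of 816, 1400 and 1386 bp. Tags per kb over those of the male vehicle peak had a median of 0.642 for female vehicle and of 0.472, 0.784 and 0.626 for days 4, 6 and 8. At matched peaks the same ratio was 0.626, 0.599, 1.56 and 1.03. These ratios are a description, since the rule took peaks that were high in male vehicle, the treated female peaks had wider medians, and the libraries differ in depth and enrichment.

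The 135 unmatched peaks with more than 50 normalized tags rested on the most tags, and 134 of them had a peak in a treated female list. All 3 treated female lists had one at 111, and female vehicle at 35. In order of vehicle and days 4, 6 and 8 the female lists had a peak at 25.9%, 83.0%, 97.0% and 94.8% of them. The weak unmatched peaks above 50 tags were close to this, with 26.5%, 75%, 97.8% and 91.2%, and the matched peaks had 85.5%, 99.7%, 99.8% and 100%. Of the 135, 87 lay in introns, 21 between genes, 18 at promoters, 8 in exons and 1 at a TTS. Their median width was 2019 bp, and a treated male peak lay within 1 kb of 33 of them. Even here the median score was 11, near the lowest of the list.

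The 12 unmatched peaks with the most tags were almost all distal, with 8 in introns, 2 between genes, 1 in an exon and 1 at a promoter. The highest was an intergenic peak upstream of Mef2a (chr7:67441954-67445021), a MEF2 factor gene, centered at -70.6 kb from its start, with 98.4 normalized tags over 3067 bp. That is 32.1 tags per kb, and its female counterparts of days 4, 6 and 8 had 15.3, 40.5 and 23.8, with none for female vehicle. A treated male peak lay only 0.19 kb away. The next was in an intron of Ski (chr4:155186428-155189801), a corepressor gene that promotes muscle growth when overexpressed, with 96.1 normalized tags or 28.5 per kb. Females had 15.1, 34.7 and 19.2 tags per kb there at days 4, 6 and 8, in the same order as at Mef2a.

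An intron of Litaf (chr16:10977112-10980146) held 93.3 normalized tags and an intron of Cd81 (chr7:143056944-143060253), a tetraspanin gene, 92.4. The Cd81 peak was in all 4 female lists, with 18.7 tags per kb for vehicle and 16.2, 55.8 and 27.3 for days 4, 6 and 8, against 27.9 in male vehicle. It lay 0.42 kb from a treated male peak. The densest of the 12 was in an intron of Adprhl1 (chr8:13248784-13250512), known for its expression in heart muscle, with 90.5 normalized tags over 1728 bp or 52.4 per kb. It too was in all 4 female lists, with 24.4, 21.1, 45.9 and 37.0 tags per kb for vehicle and days 4, 6 and 8, all below male vehicle.

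The promoter among the 12 was that shared by Tfpt and the splicing factor gene Prpf31 (chr7:3628739-3631123), with 83.5 normalized tags and 35.0 per kb. In females it had 16.9 tags per kb for vehicle and 17.7, 78.9 and 29.2 for days 4, 6 and 8, and the nearest treated male peak was 10.8 kb away. Other peaks of the 12 were in an intron of Abcg1, a cholesterol transporter gene (82.2 normalized tags), in an intron of 1600002D24Rik with 28.9 tags per kb, upstream of Tekt1 (77.8), in an intron of Eef1a2, an elongation factor gene of adult muscle and brain (76.9), and in an exon of Rpl37a, a ribosomal protein gene (74.3). Of the 12, 5 were found in female vehicle, 11 at female day 4 and 12 each at days 6 and 8. The 12 were picked for their male vehicle tags, so the female densities are a description beside them. At day 6 the female peak was denser than the male vehicle peak in 10 of 12, at day 8 in 3 and at day 4 and for vehicle in 0. A treated male peak lay within 1 kb of 4 of the 12.

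**Figure D5:**
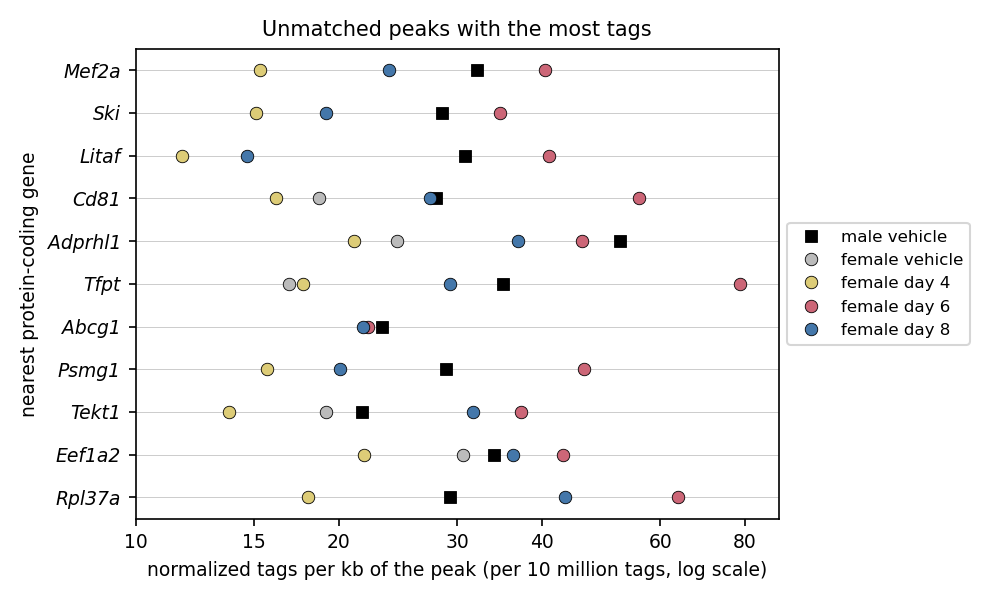
Normalized tags per kb (per 10 M tags, log scale) of 11 of the 12 unmatched peaks with the most tags, named by the nearest protein-coding gene, in male vehicle (squares) and in the overlapping female peaks (circles, where one was called). Female day 6 lies above male vehicle in all peaks shown but those at Abcg1 and Adprhl1, and female day 4 below it in every case with a peak.

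Beside these 12, the next peak by tags that was present in all 4 female lists is given. The peak in an intron of Phyhd1 (73.4 normalized tags, 25.3 per kb) overlapped a female peak of 34218 bp at day 6 and had 18.9 tags per kb for female vehicle.

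The 6 unmatched peaks with the highest ratio to input were of another kind. All 6 were 500 bp wide with 17.4 to 23.1 normalized tags, and all had the lowest input value of the list, 0.5 tags, which 107 unmatched peaks shared. The ratio was 120.8 near Cds1, 105.8 near Kctd15, 99.2 near Mbip, 94.2 near Lmx1a, 92.6 in an exon of Sel1l and 91.0 in an intron of Nsd3. Only 2 of the 6 were in a female list, those at Sel1l and Nsd3, at day 4 alone with 11.4 and 10.04 tags per kb. At 2 of the 6, near Mbip and Lmx1a, repeats made up more than 70% of the 500 bp around the center. Their tags were above the median of 13.9 but far below those of the peaks with the most tags.

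At the threshold, 3 unmatched peaks just inside it, in an intron of Ncoa2 and near Rnf149 and Nabp1, each had 24.0 H3K27ac tags on the scale of the input against 6 input tags, a ratio of 4.00, and 9.17 normalized tags. Just outside it, 3 peaks in introns of Chdh, Hspg2 and Sh3tc1 had 95.9 against 24 tags each, a ratio of 3.996, and 36.7 normalized tags. The pick by ratio sets this difference in tags, and nothing is read from it. The peaks just outside were each in 1 to 3 female lists and those just inside in none.

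The sequence of the unmatched peaks differed from that of matched peaks mainly in GC-rich motifs, at promoters and away from them. In the 500 bp around the center the median GC content was 48.8% against 53.8% in matched peaks, and the median observed over expected CpG 0.208 against 0.420. Over all autosomal vehicle peaks these medians were 50.2% and 0.223, nearer to those of the unmatched peaks. Repeats made up 50% or more of the window in 11.5% of unmatched and 3.14% of matched peaks, beside 8.95% of all. SP/KLF matches were in 8.50% (8.23 to 8.77) of unmatched, 39.3% (38.4 to 40.2) of matched and 14.6% of all peaks, and ETS matches in 0.660%, 4.36% and 1.30%. At promoters alone SP/KLF was in 36.8% (33.8 to 39.8) of unmatched and 69.2% (67.6 to 70.8) of matched peaks, beside 58.5% of all. Within introns it was in 7.81% of unmatched, 24.2% of matched and 11.2% of all peaks, and between genes in 6.46%, 16.6% and 7.77%. CpG-rich starts of widely expressed genes are known for such motifs.

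MEF2 matches were rare, in 244 unmatched peaks or 0.590% (0.521 to 0.669), against 1.34% (1.15 to 1.56) of matched, 0.399% (0.333 to 0.479) of weak unmatched and 0.657% of all peaks. Within introns they were in 0.602% (0.507 to 0.716) of unmatched and 1.57% (1.28 to 1.94) of matched peaks, and between genes in 0.574% (0.469 to 0.703) and 2.22% (1.63 to 3.01). Over all peaks the MEF2 shares were 0.711% within introns and 0.631% between genes. GR matches were in 12.1% (11.8 to 12.4) of unmatched, 9.75% (9.23 to 10.3) of matched, 11.8% of weak unmatched and 11.6% of all peaks. Within introns the GR shares were 13.1% (12.7 to 13.6) of unmatched and 11.6% (10.7 to 12.4) of matched peaks, beside 12.6% of all. Between genes the order was the reverse, with 11.1% (10.6 to 11.6) of unmatched and 13.7% (12.2 to 15.4) of matched peaks, beside 11.4% of all. E-boxes were in 25.01% of unmatched, 26.4% of matched and 27.1% of all peaks, M-CAT in 21.9%, 20.5% and 21.9%, and AP-1 in 11.97%, 10.3% and 11.5%. The loose MRE pattern was in 56.5%, 67.6% and 60.6% in the same order. The motifs were searched one by one, so a base could count for more than 1 of them. A short match is a description of the letters in the window and not evidence of binding, and base composition and repeats, given above, differed between the sets.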

How the data were processed

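H3K27ac ChIP-Seq of isolated myofibers was deposited as 8 peak lists, 1 per group. The authors aligned reads to mm10 with Bowtie2 (2.2.6 in the submitters' processing notes) and ran HOMER findPeaks in its histone mode against input, requiring 2 times input or more. The deposited normalized tag count is a signal per 10 M tags (M for 10 to the power of 6), the deposited findPeaks score a tag number, and the deposited fold a ratio over input. The deposited total and control tags are H3K27ac and input tags, with 1 of them scaled to the depth of the other. In the male vehicle list the H3K27ac tags were scaled to the input depth. Deposited p-values were not used. Columns of no group numbered 0.

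Depth was derived from the value of a single tag in low peaks where the H3K27ac tags were scaled to input. For male day 4 and female day 6, where they were not, it came from the median ratio of total to normalized tags. Overlap was 1 bp or more. Positions used 45756 curated RefSeq transcripts of GRCm38.p6 (mm10), with 21000 protein-coding genes, and the peak center. TTS was from 100 bp before to 1 kb after a transcript end. Motifs were searched on both strands in the 500 bp around the center, with repeats masked. Intervals are Wilson 95%. No test was made, since each group has 1 list.

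The members and gene lists were chosen with earlier results of these data known. Named peaks were the 12 with the most tags, the 6 with the highest ratio, up to 4 over promoters of each list's genes or else the 2 nearest, the 6 in all 4 female lists with the most tags, and 3 on each side of the threshold. Those shown as sequences were picked among these after their values were seen. List genes off the autosomes, such as Tsc22d3, Phka1 and Alas2, were left out. Some of the named peaks are not reported here. Overlaps, covered shares and gaps, tested on simulated data, were those of bedtools for 400 of 400 peaks, and 80 of 80 planted peaks and 56 of 56 planted motif sites were found. The work used Python 3.11.15 with pysam 0.24.0, matplotlib 3.10.9, pandas 2.3.3, scipy 1.17.1 and numpy 2.4.6.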

Additional observations from a re-analysis of the deposited data

How the results depend on the processing

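No paired analysis was possible from the lists used, because each group has 1 list for its 2 libraries, with no value per library. The unmatched peaks numbered between 37847 and 60015 under 8 alternatives, against 41335. They numbered 18292 at 6 times input, 6466 with every male list reduced to its 17482 peaks of highest score, and 5623 with at least 20 normalized tags, an alternative chosen after seeing the data. Of the vehicle peaks at least 4 times over input, the unmatched share was 50.7% (49.8 to 51.6) with lists of equal length and 39.4% (38.6 to 40.2) with at least 20 tags, against 77.5%.

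The share at promoters, 2.41%, became 3.39% when a treated list had to cover 50% of the vehicle peak, 2.25% when a treated peak within 1 kb counted, 2.60% at 3 times and 2.06% at 6 times input. It was 2.77%, 2.81% and 2.92% with the day 4, 6 or 8 list left out, 4.56% with lists of equal length, 4.59% with at least 20 tags and 2.12% for peaks over a transcription start. In the same order up to 1 kb, the share with a female vehicle peak, 3.13%, became 5.81% and 2.44%. It was 3.48%, 5.02% and 3.82% with a day left out, 7.13% with lists of equal length, 8.50% with at least 20 tags and 1.48% when 50% of the unmatched peak had to be covered. The share with a treated female peak, 41.6%, became 45.5% and 38.3%, then 45.2% at 3 times and 36.1% at 6 times input. It was 42.7%, 44.6% and 43.1% with a day left out, 62.0% with lists of equal length, 66.7% with at least 20 tags and 34.3% when 50% had to be covered.

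The MEF2 share, 0.590%, became 0.782% with at least 20 tags, 0.694% with repeats not masked and 0.203% in a window of 200 bp, and the GR share, 12.1%, became 12.5% at 6 times input, 11.7% with lists of equal length, 14.9% with repeats not masked and 4.97% in 200 bp. A shorter window holds fewer matches by its construction. For the other shifts the cause was not tested. The day 4 male list, with 7.52 M tags (M for 10 to the power of 6), was the shallowest, and without it the unmatched peaks numbered 42374.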

Other observations

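The genes with the most unmatched peaks nearest to them were Med13l (41), Bcl11b (38), Galnt17 (38), Vrk1 (37), Maf (35), Mgmt (35) and Rora (35), beside a median of 2 per gene that had any. Rora encodes a nuclear receptor of the circadian clock and Maf a leucine zipper factor. Among the lists, the 20 autosomal glucocorticoid response genes were the nearest gene of 109 unmatched peaks, or 5.45 per gene, and each of the 20 had at least 1, as did 61.8% of all genes. The IGF1 and PI3K list had 4.95 per gene and the dystrophin complex list 4.94. The 15 clock genes had 5.93 per gene and the 10 endothelial markers 7.10, against 2.06 over all 20021 genes, 1.00 for ribosomal protein genes and 1.18 for proteasome genes. The length of the genes and of the sequence around them was not taken into account.

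Off the autosomes, 192 of 346 X-linked vehicle peaks at least 4 times over input overlapped no treated male peak, with 1 of 1 on the Y chromosome, 0 of 2 on the mitochondrial genome and 4 of 6 on other contigs.

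At promoters, the unmatched and weak unmatched peaks were close in some readouts and apart in others. SP/KLF matches were in 36.8% (33.8 to 39.8) and 37.6% (34.4 to 40.9), and a female peak at day 8 was present at 57.2% (54.1 to 60.3) and 57.01% (53.7 to 60.3). At female day 6 the weak unmatched promoters were ahead, with 76.2% (73.2 to 78.9) against 67.9% (65.0 to 70.8), and MRE matches were in 71.3% (68.1 to 74.2) of them against 65.1% (62.1 to 68.0). They were behind for female vehicle, with 5.42% (4.09 to 7.15) against 8.32% (6.76 to 10.2). At female day 4 they were also behind, with 37.2% (34.0 to 40.5) against 41.8% (38.8 to 44.9), and the intervals overlapped in both lists.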
